A study of Mus musculus with 6 samples.

Results

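Polycomb complexes, the Asxl proteins that work with them and the enzymes that write and erase DNA methylation were followed as 45 genes, chosen by name from these complexes, in Mll-AF9 leukemias with and without the ribosomal protein gene Rpl22. RNA-seq was performed on Cd11b+Gr1+ splenocytes, the myeloid cells purified by flow cytometry from the spleens of tumor-bearing mice, with 3 libraries of genotype Rpl22+/+ and 3 of genotype Rpl22-/-. Mice of both genotypes carried Mll-AF9, a fusion oncogene introduced as a knockin allele that gives rise to acute myeloid leukemia. The labels give neither age nor treatment for these libraries; the study's methods describe its Rpl22 mice in general as young adults on the C57BL/6 background, and its Mll-AF9 mice as killed when signs of disease appeared or at set times. The labels number the libraries 1 to 3 within a genotype without saying whether they came from separate animals, and the study names 1 mouse for each genotype beside these data, so the libraries of a genotype may all come from 1 animal. In that case genotype and animal cannot be told apart, and n, the spread and the p-values below are between libraries and may be technical. Of the 45 genes, 44 had reads and were tested, among 16656 genes tested and 29374 with any read. The remaining member, Asxl3, had 0 reads in every library, which allows up to 3 reads in each.

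Polycomb proteins hold genes in a silent state by marking histones. Polycomb repressive complex 2 (PRC2) methylates histone H3 through Ezh1 or Ezh2, and Polycomb repressive complex 1 (PRC1) attaches ubiquitin to histone H2A through Ring1 or Rnf2, while the PR-DUB complex of Bap1 with an Asxl protein takes that ubiquitin off again. Dnmt enzymes methylate cytosines in CpG dinucleotides and Tet enzymes oxidize the methyl group, and several of these genes, among them ASXL1, TET2, DNMT3A and EZH2, are known to be mutated in human myeloid malignancies.

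The libraries differed in ways that bear on these genes. Depth ranged from 35828500 to 102866127 estimated reads. Rpl22 itself was at 148, 235 and 152 CPM (reads scaled to a common total with TMM-scaled library sizes) in Rpl22+/+ and at 58.3, 89.9 and 73.5 CPM in Rpl22-/-, 2.41-fold lower (edgeR adjusted p = 0.011), so that its reads were fewer but not absent in the libraries labelled Rpl22-/-; which part of the gene those reads came from was not examined. Of the antigens used for sorting, Itgam (Cd11b) stood at 1838 to 2085 CPM in Rpl22+/+ and at 815 to 1036 CPM in Rpl22-/-, and Ly6g, which encodes part of the Gr1 antigen, at 149 to 178 CPM and at 11.1 to 15.7 CPM. The other Gr1 genes did not pass and overlapped between genotypes, Ly6c2 at 768 to 1280 and at 1186 to 1678 CPM and Ly6c1 at 7.68 to 13.05 and at 9.73 to 17.7 CPM. The 10 sort antigen and myeloid genes together lay at 6526 to 7747 CPM in Rpl22+/+ and at 20011 to 24030 CPM in Rpl22-/-, where the granule genes Mpo (7.95-fold, edgeR adjusted p = 0.00066) and Elane (11.1-fold, edgeR adjusted p = 0.00033) rose. The sum of the remaining 8 genes of that list lay lower, at 4848 to 4959 CPM in Rpl22+/+ and at 3746 to 4324 CPM in Rpl22-/-. Their directions differed: the means of Itgam, Ly6g, Ptprc and Spi1 were lower in Rpl22-/-, and those of Ly6c1, Ly6c2, Cebpa and Csf3r were higher. Cebpa (mean 92.4 and 164 CPM) and Csf3r (679 and 940 CPM) did not overlap between genotypes but did not pass. Summed over their lists, 8 erythroid genes lay at 84.9 to 128 CPM in Rpl22+/+ and at 581 to 1154 CPM in Rpl22-/-, 7 B cell genes at 600.1 to 756 and at 376 to 577 CPM, 6 platelet and megakaryocyte genes at 2.95 to 4.52 and at 3.53 to 3.77 CPM, and 7 stromal and endothelial genes at 60.8 to 72.6 and at 74.3 to 95.0 CPM. The 8 T and NK cell genes summed to 42.5 to 57.2 and to 19.5 to 23.1 CPM; the 6 T cell genes fell, while the NK cell genes Ncr1 (log2 fold change 2.49, edgeR adjusted p = 0.0023) and Klrb1c (1.07, edgeR adjusted p = 0.026) rose. Most of the stromal and endothelial sum was Pecam1, at a mean of 59.2 CPM in Rpl22+/+ and 83.6 CPM in Rpl22-/-. The other tested genes of that list had lower means in Rpl22-/-: Col1a1 at 3.96 and 2.81 CPM, Cdh5 at 0.74 and 0.47 CPM and Pdgfrb at 1.17 and 0 CPM. In the stromal list 1 gene, Pdgfrb, was at 0 in every Rpl22-/- library, and 3 of the platelet genes and 2 of the stromal genes stayed under 0.1 CPM in every library. The part of these cells in the results below was not tested. In bulk RNA, fewer cells of a type and less RNA per cell cannot be told apart.

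The genotypes were tested against each other by edgeR's quasi-likelihood F test, with Benjamini-Hochberg adjustment over all genes, and a gene passed with an adjusted p under 0.05 at any size of change. Of the 44 members tested, 13 passed. Tet1, Scmh1, Scml2, Pcgf6, Cbx6, Pcgf5 and Kdm1a rose in Rpl22-/- leukemias, and Asxl1, Kdm6b, Phf1, Tet3, Ezh1 and Rnf2 fell. The background over all genes tested was 13.7% passing as higher and 13.8% as lower, so the 7 and 6 members are close to the share found in the whole transcriptome, and the median log2 fold change of the members was 0.01 beside 0.07 over all genes. A change of over 2-fold was found for 5 members that rose, against a background of 8.93%, and for 1 that fell, against 8.54%. The genotypes did not overlap in CPM for 18 of the 44 members, against 46.1% of all genes. The split into 7 higher and 6 lower moved with the scaling, to 9 and 5 with upper-quartile factors and to 10 and 4 with no composition factor, which raised the median of all genes by 0.13 on the log2 scale. Leaving out 1 library gave 7 members without Rpl22+/+ replicate 1, 6 without Rpl22+/+ replicate 3, 8 without Rpl22-/- replicate 1, 8 without Rpl22-/- replicate 2, 6 without Rpl22-/- replicate 3 and 20 without Rpl22+/+ replicate 2. Asxl1, Phf1, Cbx6, Scmh1 and Tet1 passed under each of the 21 alternatives run, while Scml2 passed under 18, Ezh1, Pcgf6 and Kdm1a under 17, Tet3 under 15, Pcgf5 under 12 and Rnf2 and Kdm6b under 11.

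**Figure D1:**
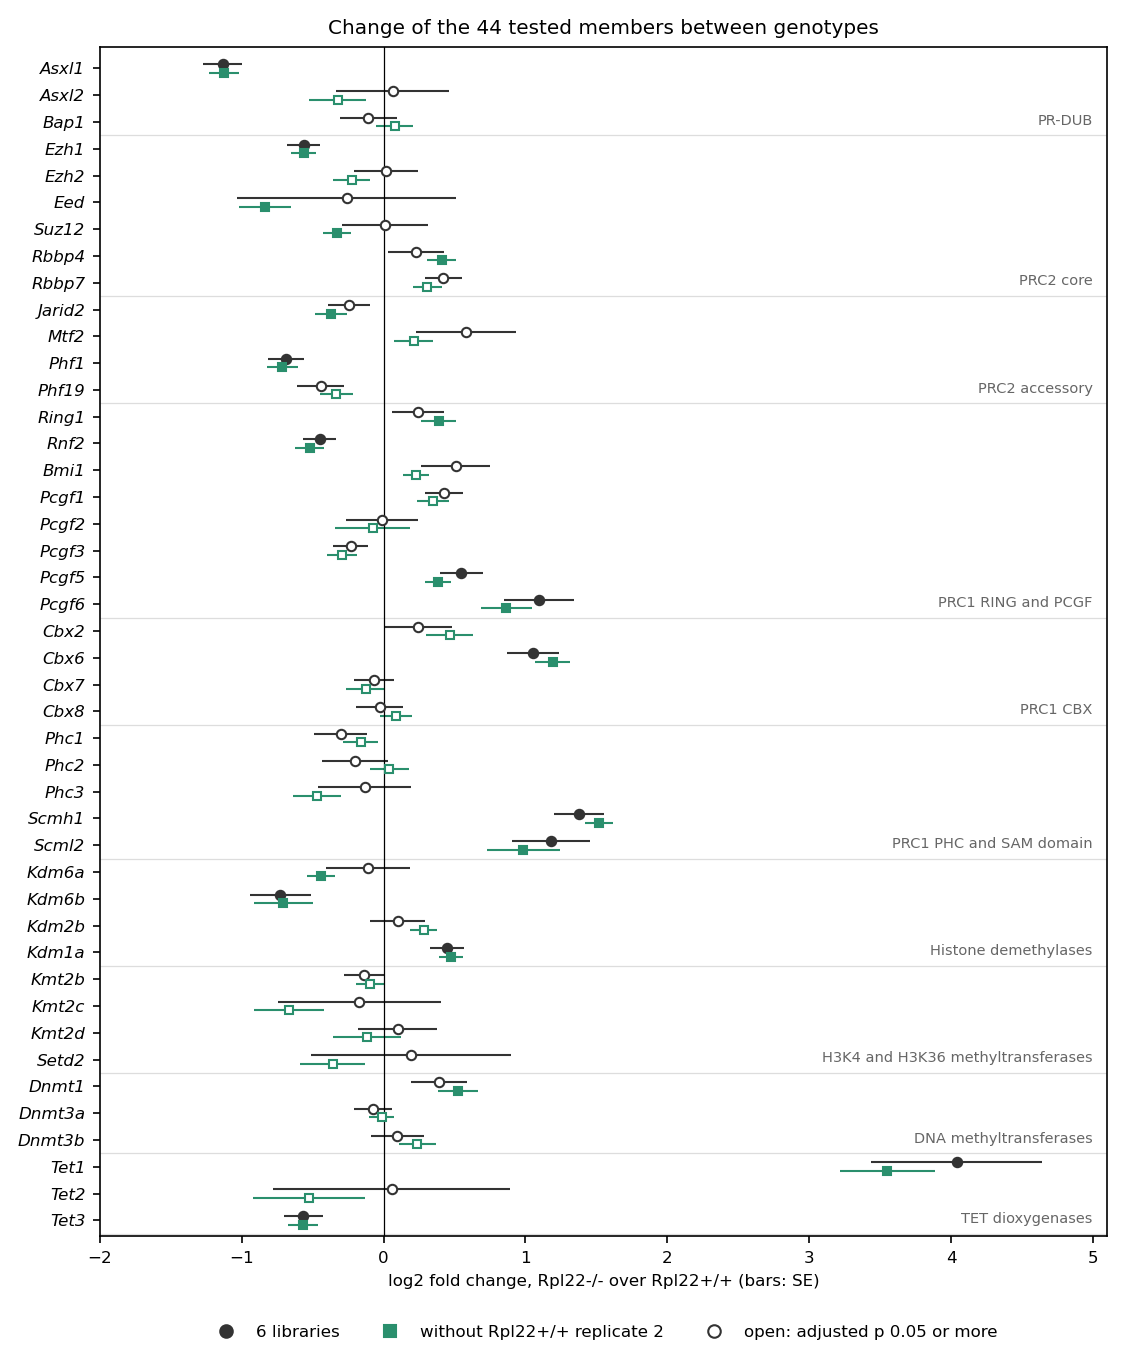
Log2 fold change (Rpl22-/- over Rpl22+/+, with SE) of the 44 tested members, grouped by complex, from all 6 libraries (circles) and without Rpl22+/+ replicate 2 (squares), with filled symbols for an adjusted p under 0.05. Tet1 stands furthest to the right at 4.04, Asxl1 furthest to the left among the filled circles at -1.14, and the bars of Eed, Setd2, Kmt2c and Tet2 shorten when Rpl22+/+ replicate 2 is left out.

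Rpl22+/+ replicate 2 held fewer reads of GC-poor transcripts, and many members are of that kind. Across the 44 members, the log2 CPM of this library minus the mean of Rpl22+/+ replicates 1 and 3 correlated across genes with transcript GC content at r = 0.61 (Spearman's rho 0.66) and with log2 transcript length at r = -0.18, while these were, over the 13199 genes averaging 50 reads or more, r = 0.58 and r = -0.29. Of the 15 members with a GC content under 45%, 14 were lower in this library, and of the 25 over 50%, 20 were higher. Over all genes averaging 50 reads or more, 2358 of 2916 under 45% were lower and 5908 of 6726 over 50% were higher. The pattern was thus shared by the whole transcriptome. More than a 2-fold deficit was found for 10 members, or 22.7%, beside 12.97% of all genes with at least 50 reads: Tet2, Eed, Setd2, Kmt2c, Tet1, Asxl2, Mtf2, Suz12, Phc3 and Kdm6a. Rpl22-/- replicate 2 deviated with it across the members (r = 0.75), by less: Tet2 was lower by 1.44 on the log2 scale than the mean of the other Rpl22-/- libraries, and Kmt2c by 0.85. These points share libraries and base composition and are given as a description. Without Rpl22+/+ replicate 2, 10 members passed as higher and 10 as lower, against a background of 21.3% and 19.6% of all genes; all 13 members remained and Rbbp4, Ring1 and Dnmt1 were added among the higher and Eed, Suz12, Jarid2 and Kdm6a among the lower. With both libraries numbered 2 left out, a setting chosen after seeing the data, 11 members were higher and 10 were lower. In that setting 3418 of all 16656 genes passed as higher and 3466 as lower.

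**Figure D2:**
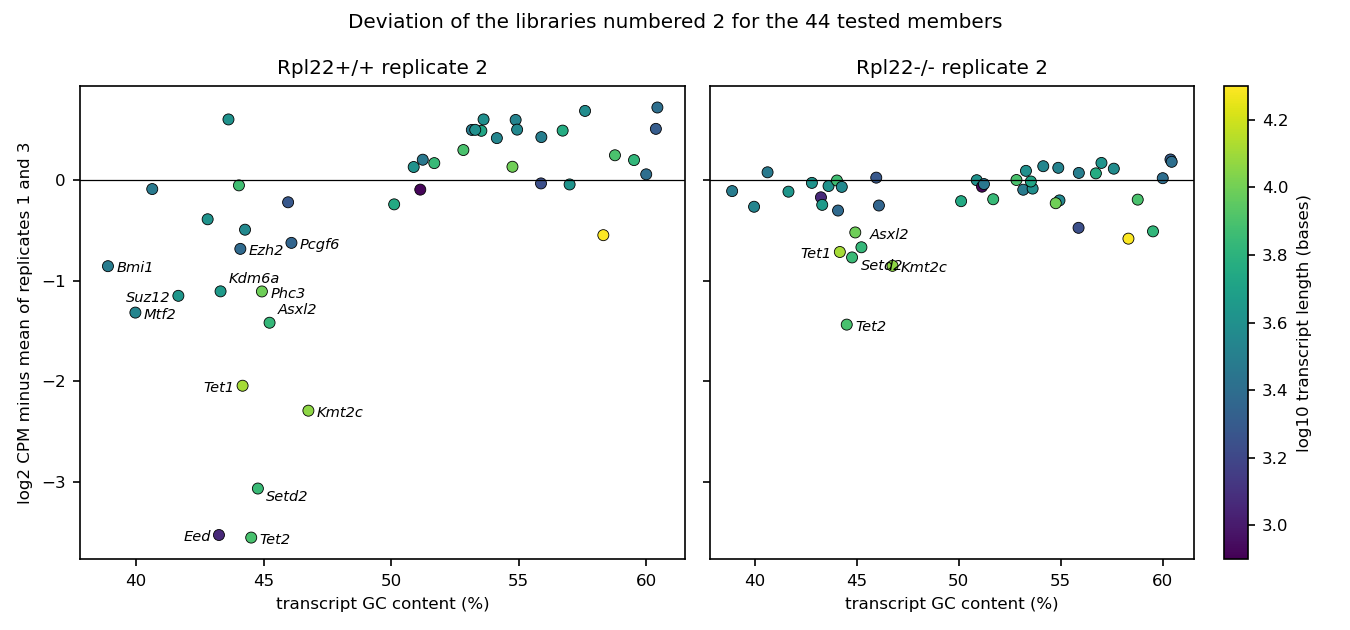
Log2 CPM of replicate 2 minus the mean of replicates 1 and 3 of the same genotype (vertical axis) against transcript GC content in percent (horizontal axis) for the 44 tested members, colored by transcript length. In Rpl22+/+ replicate 2 the GC-poor members reach down to -3.55 for Tet2, and in Rpl22-/- replicate 2 the same gene lies at -1.44.

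Within PR-DUB, Asxl1 was the member that fell. Asxl1 (ENSMUSG00000042548, chr2:153187749-153245927 on GRCm39) encodes the Bap1 partner most often mutated in myeloid disease. Its level was 194, 218 and 195 CPM in Rpl22+/+ and 102, 83.9 and 90.2 CPM in Rpl22-/-. All 3 Rpl22-/- libraries lay below all 3 Rpl22+/+ libraries, 2.20-fold lower (-1.14 on the log2 scale, SE 0.14, adjusted p = 0.0017). Its paralog Asxl2 was at 71.1, 26.6 and 70.9 CPM in Rpl22+/+ and at 73.7, 42.1 and 60.8 CPM in Rpl22-/-, a difference of 0.07 on the log2 scale (SE 0.40, adjusted p = 0.93) that turned to -0.32 without Rpl22+/+ replicate 2 (adjusted p = 0.25). The low library of each genotype was its replicate 2, and the groups overlapped. Bap1, the deubiquitinase, was at 71.7 ± 18.1 CPM (SD, n = 3) and 66.6 ± 7.19 CPM. In TPM, which is scaled for transcript length so that genes can be compared, Asxl1 was 2.27, 5.93 and 2.29 times Asxl2 in Rpl22+/+ and 1.104, 1.65 and 1.11 times in Rpl22-/-. The 2 sets of ratios did not overlap, and their log2 means differed by -1.31, or by -0.85 without Rpl22+/+ replicate 2 (exact two-sided permutation test, p = 0.1, the smallest that 3 against 3 allows, and 0.24 adjusted over the 12 paralog pairs compared). Of the Asxl1 reads, the protein-coding transcript Asxl1-201 took 96.0% in Rpl22+/+ and 94.3% in Rpl22-/-, at 35.97, 31.0 and 34.8 TPM against 20.4, 14.03 and 15.5 TPM, and it fell on its own (log2 fold change -1.21, SE 0.15, adjusted p = 0.0083).

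Among the core subunits of PRC2, 1 of 6 passed, and this was Ezh1, the methyltransferase found also in cells that do not divide. Ezh1 was at 59.3, 66.0 and 61.6 CPM in Rpl22+/+ and at 42.7, 42.1 and 41.6 CPM in Rpl22-/-, and the groups were well apart (log2 fold change -0.56, SE 0.11, adjusted p = 0.012). Ezh2, the methyltransferase of dividing cells, was at 76.6, 46.4 and 72.7 CPM against 77.2, 56.9 and 64.0 CPM, with overlapping groups (0.02, SE 0.23, adjusted p = 0.97), and turned to -0.23 without Rpl22+/+ replicate 2 (adjusted p = 0.20). Ezh2 was the more abundant of the pair in every library, with Ezh1 at 0.38, 0.75 and 0.42 of its TPM in Rpl22+/+ and at 0.26, 0.35 and 0.33 in Rpl22-/-.

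The scaffold subunits Eed and Suz12 were read differently with and without Rpl22+/+ replicate 2. Suz12 was at 118, 51.6 and 111 CPM in Rpl22+/+ and at 102, 89.2 and 92.0 CPM in Rpl22-/-, which gave 0.01 on the log2 scale (SE 0.30, adjusted p = 0.99) from 6 libraries and -0.33 (SE 0.10, adjusted p = 0.035) without that library. Eed was at 26.5, 1.88 and 18.1 CPM against 14.7, 11.9 and 12.2 CPM, with -0.26 (SE 0.77, adjusted p = 0.84) and -0.84 (SE 0.19, adjusted p = 0.014) in the same order. The Eed sum holds only part of the gene: its mean over libraries was 0.28 of the authors' mean for Eed, while the ratio lay between 0.9 and 1.1 for all but 4 of the 44 members, the others being Scml2, Tet1 and Tet2, so the Eed values describe the transcripts matched here. The histone chaperone Rbbp4 was at 180, 268 and 174 CPM against 260, 236 and 233 CPM, higher without that library (0.41, SE 0.10, adjusted p = 0.019) and not past the threshold with it (0.23, SE 0.20, adjusted p = 0.46). Rbbp7, its close homolog, was at 96.1, 79.0 and 88.4 CPM against 122, 119 and 112 CPM; the groups did not overlap and the adjusted p was 0.053.

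Of the 4 accessory subunits of PRC2, Phf1 fell. Phf1, a Polycomb-like protein that helps PRC2 bind chromatin, was at 90.4, 93.3 and 89.3 CPM in Rpl22+/+ and at 62.0, 56.7 and 50.7 CPM in Rpl22-/- (log2 fold change -0.69, SE 0.13, adjusted p = 0.0089). Its homologs Mtf2 and Phf19 did not pass: Mtf2 was at 49.7, 18.9 and 44.7 CPM against 67.2, 49.6 and 53.1 CPM, and Phf19 at 22.3, 30.3 and 23.1 CPM against 17.5, 19.7 and 18.4 CPM. Phf1 stood at 1.61, 5.55 and 1.75 times Mtf2 in TPM in Rpl22+/+ and at 0.90, 1.32 and 0.91 times in Rpl22-/-, without overlap, and the log2 means differed by -1.29, or by -0.71 without Rpl22+/+ replicate 2 (exact permutation test, p = 0.1, adjusted 0.24). Phf1 had 2 protein-coding transcripts at like levels, of which Phf1-201 fell from 22.2 ± 0.80 to 12.6 ± 2.14 TPM (SD, n = 3, edgeR adjusted p = 0.021) and Phf1-205 was at 19.5 ± 4.37 and 15.04 ± 3.04 TPM (edgeR adjusted p = 0.22). Jarid2, which brings PRC2 to its sites, was at 80.4, 72.1 and 90.5 CPM against 76.4, 61.7 and 66.9 CPM, lower only in the comparison without Rpl22+/+ replicate 2 (-0.37, SE 0.11, adjusted p = 0.039).

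PRC1 is built on Ring1 or Rnf2 together with 1 of the Pcgf proteins, and 3 of these 8 genes passed. Rnf2, the main ubiquitin ligase of PRC1, was at 34.4, 32.4 and 34.7 CPM in Rpl22+/+ and at 23.7, 25.6 and 25.0 CPM in Rpl22-/- (log2 fold change -0.45, SE 0.12, adjusted p = 0.03). Ring1 was at 20.5, 29.9 and 21.6 CPM against 27.7, 31.0 and 26.3 CPM, and passed as higher without Rpl22+/+ replicate 2 (0.39, SE 0.13, adjusted p = 0.048). The ratio of Ring1 to Rnf2 in TPM was 0.96, 1.504 and 0.94 in Rpl22+/+ and 1.70, 1.75 and 1.68 in Rpl22-/-, so that every Rpl22-/- library had the higher ratio (exact permutation test, p = 0.1, adjusted 0.24). The summed TPM of both genes was 40.0 ± 2.58 and 41.2 ± 1.40 (SD, n = 3).

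Among the Pcgf genes, Pcgf6 and Pcgf5 rose; both encode subunits of variant PRC1 complexes, which lack Cbx proteins. Pcgf6 was at 5.20, 3.00 and 4.14 CPM in Rpl22+/+ and at 10.2, 7.77 and 8.47 CPM in Rpl22-/- (log2 fold change 1.096, SE 0.25, adjusted p = 0.018). Without Rpl22+/+ replicate 2, where Pcgf6 was lowest, its change was 0.86 and no longer over 2-fold. Pcgf5 was at 38.6, 28.9 and 37.2 CPM against 54.3, 50.2 and 48.5 CPM (0.55, SE 0.15, adjusted p = 0.038). Pcgf1 was at 9.46, 8.75 and 9.27 CPM against 12.6, 11.9 and 12.4 CPM, with an adjusted p of 0.052 although the groups were apart. Bmi1 (Pcgf4), a self-renewal factor of hematopoietic stem cells, was at 34.0, 17.9 and 31.0 CPM against 41.0, 37.4 and 39.7 CPM (0.51, SE 0.24, adjusted p = 0.17). Pcgf2 was under 2 CPM in every library, and Pcgf3 was at 28.1 ± 0.80 and 24.0 ± 1.80 CPM (SD, n = 3). By TPM, Pcgf1, Pcgf5 and Bmi1 made up most of the family in both genotypes, at 29.0% ± 1.65, 28.8% ± 2.02 and 27.0% ± 3.99 in Rpl22+/+ and at 28.2% ± 0.15, 31.8% ± 1.88 and 26.1% ± 0.92 in Rpl22-/-. Pcgf6 took 3.85% ± 0.52 and 5.93% ± 0.49 (SD, n = 3).

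Of the Cbx proteins, the chromodomain readers of canonical PRC1, Cbx6 rose. Cbx6 was at 18.2, 23.8 and 15.8 CPM in Rpl22+/+ and at 42.1, 41.2 and 36.8 CPM in Rpl22-/- (log2 fold change 1.06, SE 0.18, adjusted p = 0.0067), and Cbx6-203 took 80.8% of its reads in Rpl22+/+ and 82.7% in Rpl22-/-. Cbx7, Cbx8 and Cbx2 did not pass, at 38.1 ± 3.04, 16.9 ± 2.99 and 4.48 ± 1.31 CPM in Rpl22+/+ and at 36.4 ± 4.08, 16.5 ± 0.69 and 5.29 ± 0.33 CPM in Rpl22-/- (SD, n = 3). Cbx7 held the largest share of the family's TPM in both genotypes, 46.3% ± 3.85 and 38.7% ± 2.16, and Cbx6 went from 13.2% ± 1.22 to 25.4% ± 1.71.

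**Figure D3:**
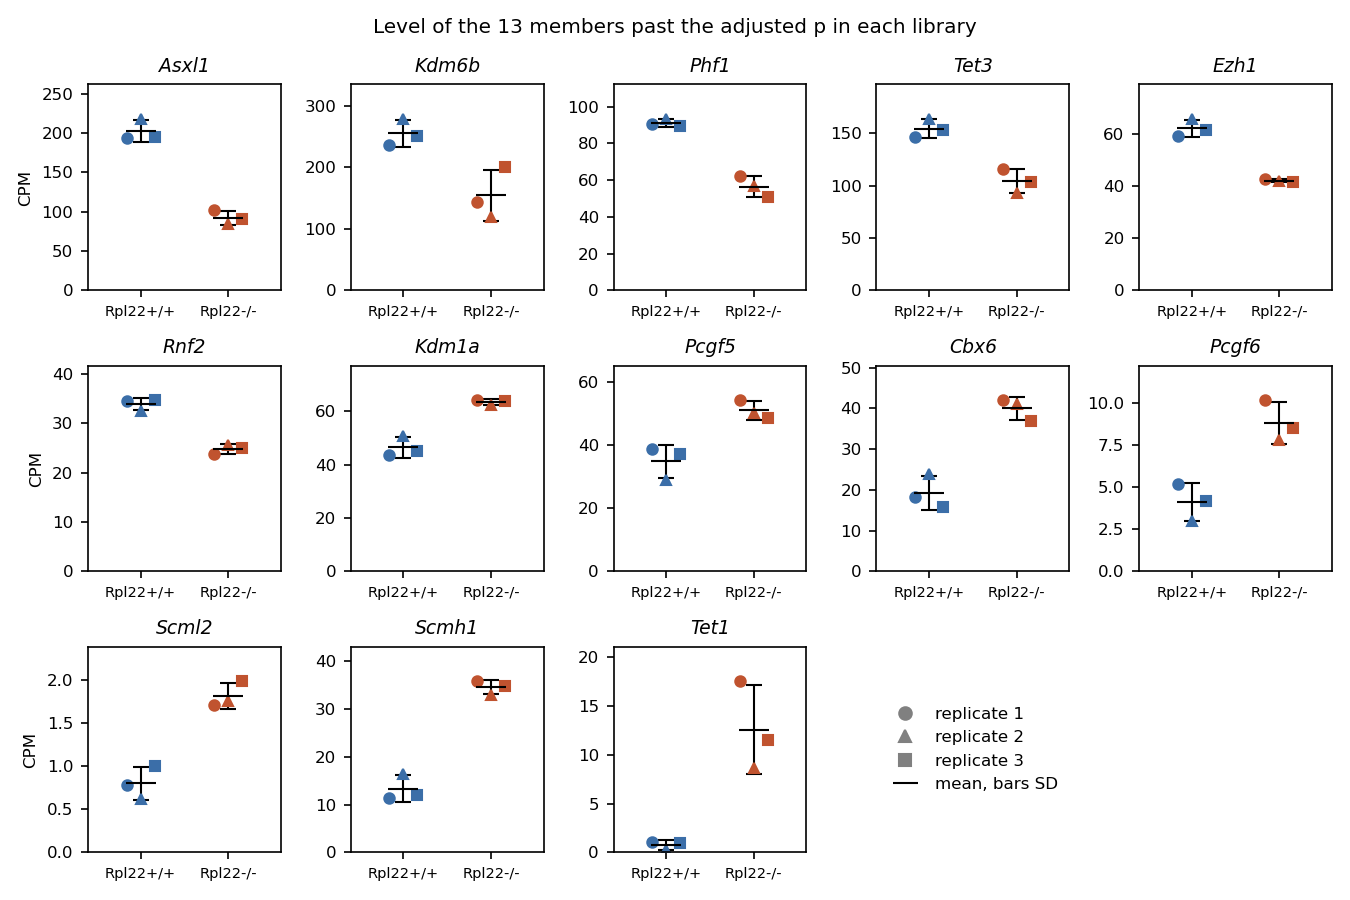
CPM of the 13 members past the adjusted p in each library, ordered from the lowest to the highest log2 fold change, with replicates as symbols, means as horizontal lines and SD as bars. The genotypes do not overlap in any panel, and in Rpl22+/+ replicate 2 Tet1 sits at 0.23 CPM.

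Scmh1 and Scml2, homologs of the Drosophila Sex comb on midleg protein with a SAM domain, rose, while the 3 Phc genes did not pass. Scmh1 (ENSMUSG00000000085, chr4:120262478-120387383 on GRCm39) was at 11.3, 16.5 and 12.1 CPM in Rpl22+/+ and at 35.8, 32.9 and 34.7 CPM in Rpl22-/-. Each Rpl22-/- library was above each Rpl22+/+ library, by 1.38 on the log2 scale between genotypes (SE 0.18, adjusted p = 0.0022). Its main transcript Scmh1-201 rose from 3.92 ± 0.24 to 10.3 ± 0.37 TPM (SD, n = 3, edgeR adjusted p = 0.026), and the non-coding transcript Scmh1-210 was listed at 0 TPM in all Rpl22+/+ libraries and at 2.49, 0.88 and 1.56 TPM in Rpl22-/-, where alone it reached the expression filter. Scml2 was low, at 0.78, 0.62 and 1.00 CPM against 1.71, 1.76 and 1.99 CPM (1.18, SE 0.27, adjusted p = 0.02), and without Rpl22+/+ replicate 2 its change was 0.98. Phc2, the most abundant of the Phc genes by TPM, was at 53.1, 90.4 and 56.8 CPM against 50.4, 62.8 and 61.0 CPM, and Phc3 at 73.1, 34.3 and 74.7 CPM against 67.8, 42.7 and 55.5 CPM.

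Scmh1 lies on chromosome 4, as does Rpl22, and 32.1 megabases before it. Of 832 genes tested on chromosome 4, 278 passed as higher in Rpl22-/- and 61 as lower, with a median log2 fold change of 0.44, so that a higher level in Rpl22-/- was frequent among genes of this chromosome. The members on chromosome 4 were Scmh1, Kdm1a, Rbbp4 and Phc2, of which the first pair passed, both as higher. The part of the chromosome in their change was not tested.

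Of the 5 members that passed under every alternative, the bases before the first annotated exon are given for Phf1, which fell, and Scmh1, which rose, as examples of promoters rich in CpG, the dinucleotide that DNA methylation acts upon. The others are not shown because their stretches before the exon were short, 41 bases for Asxl1, 62 for Tet1 and 0 for Cbx6. In windows of 250 bases before to 50 after the start, which take in exon, Asxl1 held 13 CpGs, Tet1 17, Phf1 24, Cbx6 31 and Scmh1 54, so the shown pair does not stand for all 5. Tet1-206, the Tet1 transcript with most reads, starts 11794 bases upstream of the start used for the Tet1 window. Cbx6-203, that of Cbx6, starts 355 bases upstream of the start used there. The windows of Tet1 and Cbx6 therefore do not hold the start of these transcripts. The stretches shown are RefSeq sequence of build GRCm38.p6, on the plus strand, 5′ to 3′, with each CpG in capitals, at chr17:26932877-26933051 for Phf1 and chr4:120405098-120405280 for Scmh1.
Phf1: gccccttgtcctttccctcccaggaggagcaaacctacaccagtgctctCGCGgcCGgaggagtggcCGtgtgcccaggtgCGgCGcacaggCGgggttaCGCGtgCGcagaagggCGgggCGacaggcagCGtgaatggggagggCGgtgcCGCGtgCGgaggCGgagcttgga
Scmh1: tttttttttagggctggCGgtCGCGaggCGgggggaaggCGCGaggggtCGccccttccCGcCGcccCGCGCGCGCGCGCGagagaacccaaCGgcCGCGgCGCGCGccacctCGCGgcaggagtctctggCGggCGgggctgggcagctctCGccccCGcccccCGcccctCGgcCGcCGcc
The Phf1 stretch of 175 bases holds 18 CpGs and the Scmh1 stretch of 183 bases holds 32. In the same windows, found for 40 of the 45 members, the median was 28 CpGs, beside 7 over 27025 promoters, and 35 of the 40 held at least 15 CpGs, beside 35.2% of all promoters. The E-box CACGTG, searched on both strands, occurred in 10 of the 40, or 25.0%, beside 7.24% of all promoters, and among the 12 members that passed and had a window, only in that of Cbx6. An E2F-type motif (TTTGGCGC, TTTCCCGC or TTTCGCGC, on both strands) occurred in the windows of Ezh2, Suz12 and Phf19, or 7.5%, beside 1.91% of all promoters, and in 0 of those 12. Each of these motifs itself holds a CpG, and the shares were not compared at like CpG content. These matches are a description of the letters in the windows.

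Of the histone demethylases, Kdm6b fell and Kdm1a rose. Kdm6b, which removes the methyl groups that PRC2 adds, was at 236, 279 and 251 CPM in Rpl22+/+ and at 143, 119 and 201 CPM in Rpl22-/- (log2 fold change -0.73, SE 0.21, adjusted p = 0.045), and its Rpl22-/- libraries were the more spread. Kdm6a, the X-linked enzyme with the same substrate, was at 53.5, 25.1 and 54.6 CPM against 44.6, 36.5 and 42.2 CPM, and passed as lower without Rpl22+/+ replicate 2 (-0.44, SE 0.10, adjusted p = 0.014). Kdm1a (LSD1), a demethylase of H3K4, was at 43.7, 50.9 and 45.01 CPM against 64.3, 62.3 and 63.9 CPM (0.45, SE 0.12, adjusted p = 0.034). Kdm2b, which brings a variant PRC1 to unmethylated CpG islands, was at 60.5 ± 15.4 and 64.7 ± 3.40 CPM (SD, n = 3).

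None of the 4 H3K4 and H3K36 methyltransferases passed with edgeR, DESeq2 or limma-voom from 6 libraries with genotype alone in the model, and 0 had an unadjusted p under 0.05. Setd2, which trimethylates H3K36, was at 172, 20.4 and 170.3 CPM in Rpl22+/+ and at 174, 93.7 and 146 CPM in Rpl22-/-, a difference of 0.19 on the log2 scale (SE 0.70) that turned to -0.36 without Rpl22+/+ replicate 2 (adjusted p = 0.25). Kmt2c was at 186, 37.8 and 185 CPM against 155, 78.4 and 129 CPM (-0.17, adjusted p = 0.86), and it passed as lower with both libraries numbered 2 left out (-0.46, edgeR adjusted p = 0.025). For both genes, replicate 2 was the lowest library of each genotype, and the spread within Rpl22+/+ was larger than the difference between genotypes. Kmt2d and Kmt2b, which are richer in GC, were at 395 ± 93.0 and 174 ± 17.4 CPM against 423 ± 132 and 158 ± 13.02 CPM (SD, n = 3).

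None of the 3 DNA methyltransferases passed with edgeR, DESeq2 or limma-voom from 6 libraries, and 0 had an unadjusted p under 0.05. Dnmt1, the maintenance enzyme that copies methylation at replication, was at 357, 496 and 351 CPM in Rpl22+/+ and at 604, 518 and 454 CPM in Rpl22-/-. Its log2 fold change was 0.39 (SE 0.20, adjusted p = 0.20) from 6 libraries and 0.52 (SE 0.14, adjusted p = 0.027) without Rpl22+/+ replicate 2, where Dnmt1 was the highest of its genotype, and it passed under 6 of the 21 alternatives. The de novo enzymes Dnmt3a and Dnmt3b were at 40.6 ± 4.97 and 8.75 ± 1.84 CPM against 38.6 ± 1.41 and 9.35 ± 0.34 CPM (SD, n = 3). In TPM, Dnmt1 was the most abundant of all members in 5 of 6 libraries, with Rbbp4 above it in Rpl22+/+ replicate 2, and it made up 88.8% ± 0.61 of the family in Rpl22+/+ and 92.1% ± 0.81 in Rpl22-/-. The Dnmt3b transcript Dnmt3b-207 was listed at 0.37, 0.35 and 0.60 TPM in Rpl22+/+ and at 0 in all Rpl22-/- libraries, and was tested through Rpl22+/+ alone, with Dnmt3b as a whole at 2.96 ± 0.15 and 3.16 ± 0.20 TPM.

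Among the Tet dioxygenases, Tet1 rose and Tet3 fell. Tet1 (chr10:62640349-62744775 on GRCm39) was at 1.08, 0.23 and 0.98 CPM in Rpl22+/+ and at 17.6, 8.65 and 11.5 CPM in Rpl22-/-, the largest change of the members at 4.04 on the log2 scale (SE 0.60, adjusted p = 0.0038), or 16.5-fold. Its counts were 166 reads over the Rpl22+/+ libraries and 2742 over the Rpl22-/- libraries, and without Rpl22+/+ replicate 2, the lowest, the change was 3.55 (SE 0.33, adjusted p = 0.00058). The long protein-coding transcript Tet1-206 took 80.6% of the Tet1 reads in Rpl22+/+ and 69.3% in Rpl22-/-, at 0.06 ± 0.05 and 0.76 ± 0.36 TPM, and did not pass on its own. Tet1 as a whole was at 0.14 ± 0.11 and 2.77 ± 1.38 TPM (SD, n = 3), so most of its TPM in Rpl22-/- was given to other transcripts. The short transcript Tet1-205 was listed at 0 in all Rpl22+/+ libraries and at 0.53, 0.20 and 0.37 TPM in Rpl22-/-, the genotype through which alone it was tested. Tet3 was at 146, 164 and 154 CPM in Rpl22+/+ and at 116, 93.5 and 104 CPM in Rpl22-/- (-0.57, SE 0.14, adjusted p = 0.023), and its transcript Tet3-203 fell as well, from 6.54 ± 0.68 to 4.17 ± 0.80 TPM (SD, n = 3, edgeR adjusted p = 0.028). Tet2, frequently mutated in myeloid disease, was at 88.3, 7.62 and 90.8 CPM against 90.8, 30.1 and 73.3 CPM (0.06, SE 0.83, adjusted p = 0.97), the largest standard error of any member, and its difference turned to -0.53 without Rpl22+/+ replicate 2 (SE 0.39, adjusted p = 0.33). Tet1 remained the least abundant of the family, at 0.43%, 0.07% and 0.44% of the family's TPM in Rpl22+/+ and 9.04%, 7.51% and 6.10% in Rpl22-/-. The ratio of Tet1 to Tet3 did not overlap between genotypes (exact permutation test, p = 0.1, adjusted 0.24).

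**Figure D4:**
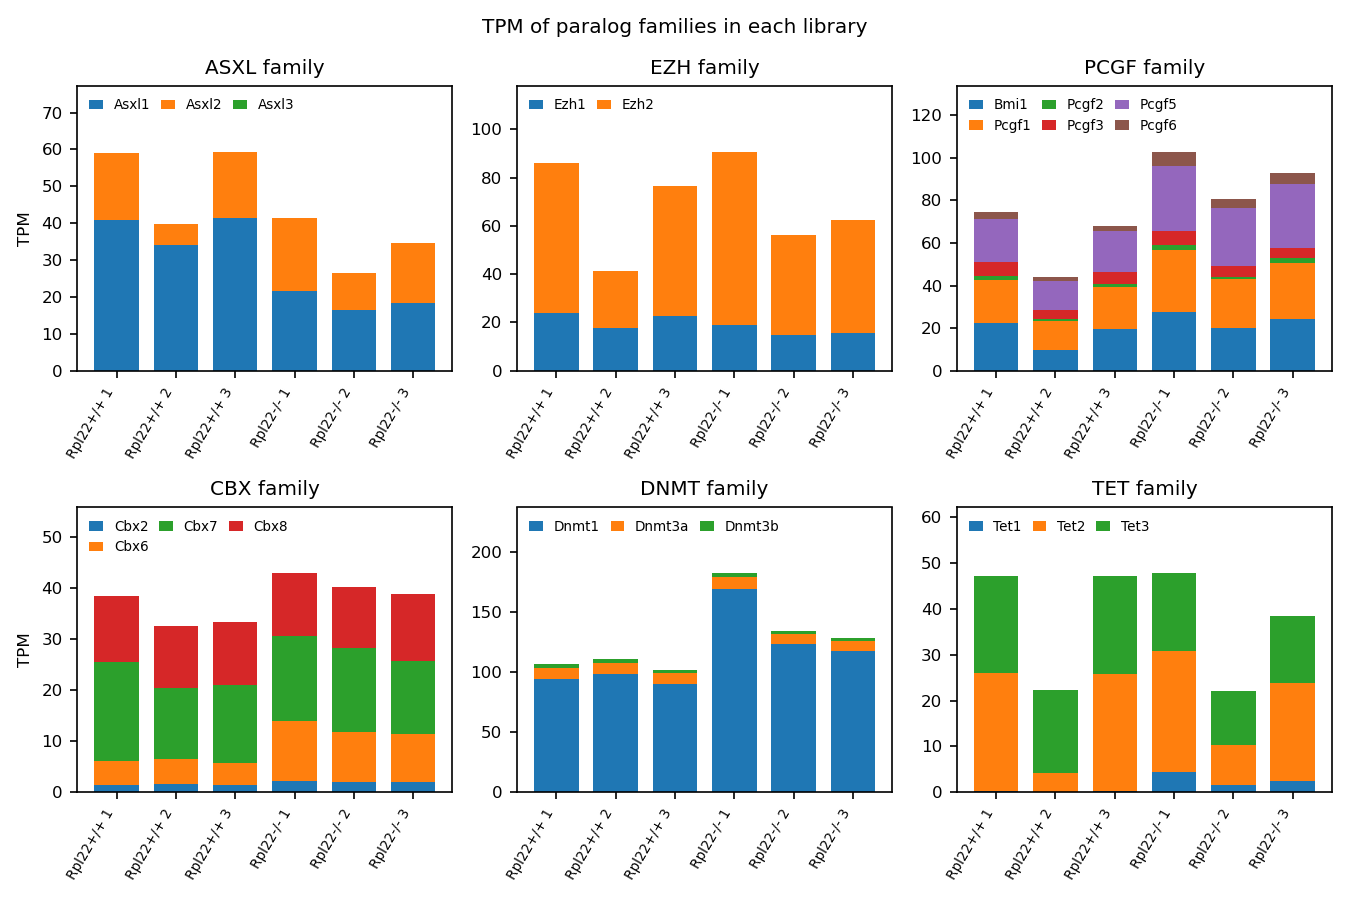
TPM of 6 paralog families in each library, stacked by gene. The Asxl1 segment is smaller and the Cbx6 segment larger in Rpl22-/-, Tet1 is at most 0.21 TPM in Rpl22+/+ and reaches 4.32 TPM in Rpl22-/-, and the totals of the ASXL, EZH, PCGF and TET families are lowest in replicate 2 of each genotype.

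Transcript by transcript, 241 of the 382 transcripts listed for the members could be tested, among 57835 in all. Of these, 5 passed as higher, against a background of 3.1%, and 4 as lower, against 3.84%. The higher ones were Scmh1-201, Scmh1-210, Pcgf6-201, Tet1-205 and Pcgf3-203, the last a nonsense-mediated decay transcript listed at 0 in all Rpl22+/+ libraries, and the lower ones were Asxl1-201, Phf1-201, Tet3-203 and Dnmt3b-207. Pcgf6-201 was at 2.42, 1.32 and 1.93 TPM in Rpl22+/+ and at 5.39, 3.85 and 4.44 TPM in Rpl22-/-. Of these 9, the 4 listed at 0 in one genotype (Scmh1-210, Tet1-205, Pcgf3-203 and Dnmt3b-207) reached the expression filter through the other genotype alone and could pass in 1 direction only, so the counts are a description and nothing is read from them against the background. With the replicate number as a block, 1 transcript passed as higher and 2 as lower. Salmon divides reads shared by transcripts of a gene, so the values of minor transcripts are less certain than those of the gene.

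Other genes of the same complexes were counted in 4 further lists. Of 24 other PRC1 and variant PRC1 subunits, Sfmbt1 and Skp1 passed as higher and Auts2, Sfmbt2, Scml4 and Yaf2 as lower. The changes of over 2-fold were those of Scml4, at 10.7, 8.05 and 7.70 CPM in Rpl22+/+ and 4.09, 4.66 and 4.41 CPM in Rpl22-/- (-1.003 on the log2 scale, adjusted p = 0.0094), Sfmbt2, at 2.92, 2.11 and 3.37 CPM against 1.36, 1.35 and 1.28 CPM (-1.07, adjusted p = 0.021), and Auts2, a variant PRC1 subunit, at 0.21, 0.43 and 0.32 CPM against 0.05, 0.04 and 0.12 CPM (-2.08). Auts2 reached the level of the expression filter in 3 Rpl22+/+ libraries but in only 1 Rpl22-/- library. It was thus tested mainly through the genotype where it was high, and its values are given as a description. Scmh1 and Scml2 rose while their relative Scml4 fell. Of 19 DNA methylation partners and readers, Dmap1 and Mbd1 passed as higher and Mbd2 as lower. Of 22 partners of the H3K4 and H3K36 enzymes, Ash2l passed as higher and Kdm2a as lower; Ash2l, a shared subunit of the MLL-type methyltransferases, was at 44.6, 53.8 and 44.1 CPM against 115, 112 and 104 CPM (1.21, SE 0.14, adjusted p = 0.0013). Of 11 tested partners of PRC2 and PR-DUB, 0 passed with edgeR, 2 had an unadjusted p under 0.05, 2 passed with DESeq2 and 0 with limma-voom. In all, 11 of 76 of these genes passed from 6 libraries (14.5%) and 32 without Rpl22+/+ replicate 2 (42.1%), beside 27.6% and 41.0% of all genes. With GC correction 27 of the 76 passed, where 6252 of all 16656 genes did, and the count also rose with the replicate block. The lower share from 6 libraries thus depended on the model.

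A list of 50 developmental regulators that Polycomb usually holds silent was mostly not expressed. Of these, 22 had 0 reads in every library, 47 stayed under 1 CPM in every library and 5 were tested. Lhx1, a LIM homeobox factor, was at 1.94, 1.90 and 1.56 CPM in Rpl22+/+ and at 0.37, 0.33 and 0.25 CPM in Rpl22-/- (log2 fold change -2.52, edgeR adjusted p = 0.0015). Lhx2 and Bmp7 did not pass. Hoxb13, at 1.57, 2.61 and 1.86 CPM against 0, 0.03 and 0.01 CPM, and Pax2, at 0.47, 0.63 and 0.55 CPM against 0.05, 0 and 0 CPM, reached the expression filter in the Rpl22+/+ libraries alone and could come out in no other direction, so their values are given as a description; the Rpl22-/- libraries together held 4 reads of Hoxb13 and 2 of Pax2. Of 20 cell cycle genes, which move with Dnmt1, Ezh2 and Uhrf1 in dividing cells, Ccna2 alone passed, as lower (-0.67, SE 0.14, edgeR adjusted p = 0.013), or 5% beside 27.6% of all genes. The summed level of the list was 3082 to 3235 CPM in Rpl22+/+ and 3135 to 3818 CPM in Rpl22-/-. Without Rpl22+/+ replicate 2, 9 of the 20 passed as higher and 1 as lower, beside 21.3% and 19.6% of all genes, so the place of the list beside the background depended on that library.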

How the data were processed

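RNA of sorted Mll-AF9 leukemia splenocytes was measured in 6 libraries, grouped by their titles. According to the methods and the submitters' processing notes, libraries were stranded, poly(A)-enriched and read from both ends, and the authors used Trimmomatic for trimming and Salmon for quantification; versions and the transcript set are not given in the sources used here. The authors deposited estimated counts and TPM per transcript for each library. A further deposited table holds their DESeq2 comparison (fold changes, p-values), which was not used; its positions (GRCm39) and its mean signal over all libraries, the authors' mean, served to locate genes and to check that gene sums were complete. No column of another sample was present (0).

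Estimated counts were summed to genes by the transcript identifiers of GENCODE vM21, which matched 49.2% of transcripts and 98.0% to 98.1% of reads, and rounded. Genes and transcripts passing filterByExpr were tested by quasi-likelihood in edgeR 4.0.16 (F test, R 4.3.3, TMM, genotype only, Benjamini-Hochberg over all features); SE is the one implied by F. CPM is on TMM-scaled sizes, and log2 CPM used a prior count of 2. Ratios of paralogs used log2 TPM with 0.01 added and the exact two-sided permutation test. The test was tested on simulated data. Floors of 3 reads take in counting error alone, as the reads carry no molecular identifiers.

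The members and lists were chosen with earlier results of these data known. Named with full values were members past an adjusted p of 0.05 or whose call changed without Rpl22+/+ replicate 2; in further lists, genes also over 2-fold, at most 10 a list; and transcripts, the 2 of highest TPM of a described member or those that passed. Transcripts that passed under 1 TPM, and genes of further lists that passed at smaller changes, were named after their values were seen. Alternatives were DESeq2 1.42.0 size factors, upper-quartile or no composition factors, no filter or a mean of at least 50 reads, the DESeq2 test, limma-voom (limma 3.58.1), limma on log2(TPM + 1) or log2(TPM + 0.1), the replicate block, GC and length corrections (lowess, span 0.3), protein-coding transcripts only and each library left out. Figures were drawn with matplotlib 3.10.9.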

Additional observations from a re-analysis of the deposited data

How the results depend on the processing

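Counts of members past the adjusted p that moved by over 1.5 times were as follows, beside 7 higher and 6 lower. With the replicate block and GC correction together, 11 were higher. On log2(TPM + 1) and on log2(TPM + 0.1), 2 were lower, and the count over 2-fold higher was 3 on log2(TPM + 1) beside 5. With both libraries numbered 2 left out, 11 were higher, 10 lower and 3 over 2-fold higher, where 3418 of all 16656 genes passed as higher and 3466 as lower. With the length correction, 0 were over 2-fold lower beside 1, Asxl1. Leaving out 1 library gave 3 to 10 higher and 2 to 10 lower members, 3 to 4 over 2-fold higher and 1 over 2-fold lower in every case. The other 4 lists, beside 5 higher and 6 lower, gave 13 higher with no composition factor and 10 and 11 with the replicate block. They gave 12 and 15 with GC correction, where 6252 of all 16656 genes passed. With both libraries numbered 2 left out they gave 19 and 17, beside 3418 and 3466 of all genes. With 1 library left out they gave 1 to 15 and 1 to 17. Where no count over all genes is given beside them, these counts are a description. Member transcripts, beside 5 higher and 4 lower, were 1 and 2 with the replicate block, and 0 to 11 and 0 to 6 with 1 library left out. Suz12 turned from 0.01 to -0.33 without Rpl22+/+ replicate 2 and to -0.32 with both libraries numbered 2 left out, each past the adjusted p, and with 1 library left out it ranged from -0.33 to 0.21. The cause of these moves was not tested. Of the other values of single genes, 833 kept their call, 39 gained and 50 lost it in the same direction. The 84 recomputed differences in paralog log2 ratios moved by less than the larger of the SDs of the 2 genotypes, which in Rpl22+/+ takes in replicate 2; without that library Phf1/Mtf2 went from -1.29 to -0.71, Ezh1/Ezh2 from -0.65 to -0.35, Phf19/Mtf2 from -1.10 to -0.37, Kdm6b/Kdm6a from -0.54 to -0.08 Asxl1/Asxl2 from -1.31 to -0.85, Rbbp4/Rbbp7 from -0.16 to 0.14, Kmt2c/Kmt2d from 0.0004 to -0.53 and Tet2/Tet3 from 0.75 to -0.04.

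Same-numbered libraries correlated in their deviations at r = 0.48, 0.63 and 0.097 over all 16656 genes tested, the last not above 0.1, and at r = 0.57, 0.71 and 0.129 over the 13202 genes averaging 50 reads or more, so the answer depended on the genes used. Over all genes tested, Rpl22+/+ replicate 3 correlated more with Rpl22-/- replicate 1 (r = 0.36) than with its own number, and the numbers were not taken to pair libraries. The replicate block left 7 members higher and 6 lower. Depth limits Asxl3, Scml2, Pcgf2 and Tet1 in Rpl22+/+, and 3 libraries a genotype limit the permutation tests to p = 0.1.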
